A study of Rattus norvegicus with 2 samples.

Results

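The TRIM genes are the tripartite motif family, taken here as every gene whose symbol is Trim followed by a number. By this rule 51 of the 17049 genes in the deposited expression table are members, and the rule uses the gene name alone and no measured value. The study cultured primary OPCs (oligodendrocyte precursor cells, the proliferating glia from which myelin-forming oligodendrocytes develop) from the brain of wild-type adult rats and sequenced their RNA. One culture received amyloid-β (Aβ, the peptide that builds the plaques of Alzheimer's disease) at 1 µM over 2 days and the other received the solvent DMSO, so each group had 1 library. The treatment text attached to the control sample also names Aβ, and the control was identified from its treatment label, which gives DMSO. Both cultures were grown in OGM medium and carried the wild-type genotype. Without a second library in either group no difference could be checked against replicates, and neither p-values nor standard errors are printed for the comparison.

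TRIM proteins share an N-terminal run of a RING finger, 1 or more B-box zinc fingers and a coiled coil. The RING finger recruits a ubiquitin-loaded E2 enzyme and passes the ubiquitin to a target, which marks the target for degradation or changes its signalling. The part of the protein after the coiled coil selects the target and divides the family into classes: most members end in a PRY-SPRY domain, while others carry a PHD finger and bromodomain that read chromatin, an NHL propeller, a microtubule-binding COS box or a membrane anchor. Many PRY-SPRY members are induced by interferon and act in antiviral defence, several NHL and COS-box members act in neurons and neural progenitors, and TRIM28 is the central corepressor of the KRAB zinc finger proteins.

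The libraries held 15704932 (Aβ) and 15663751 (control) estimated reads. The labelled cell type was compared with its markers. Of 10 OPC markers 9 were in the table and 7 reached 1 TPM (a level corrected for gene length and library total) in either library. Olig1, Ptprz1 and Olig2 led, whereas Sox10 stood at 0.84 TPM (Aβ) and 1.22 TPM (control) and Gpr17 at 0.13 TPM in both. Pdgfra was at 23.18 and 24.58 TPM, Cspg4 at 6.65 and 3.70 TPM and C1ql1 at 8.24 and 4.25 TPM. Neu4 was at 0 reads in the control. The OPC markers summed to 2661 TPM (Aβ) and 2871 TPM (control), with 3 higher and 5 lower by TPM. All 7 astrocyte markers were measured at a summed 2122 TPM (Aβ) and 2161 TPM (control), and 11 of 12 microglia and macrophage markers at 286.1 and 341.9 TPM. The 6 neuron markers summed to 133.1 and 129.5 TPM, and none of the astrocyte, microglia or neuron markers was at 0 reads. The part of these other cell types in any TRIM level was not tested. In such bulk libraries, fewer cells of a type and less RNA per cell cannot be told apart.

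TRIM genes were widely present in these cells and differed little between the libraries. Of the 51 members, 35 reached 1 TPM in either library and are called measured, and 16 did not. For each gene 1 was added to the TPM of both libraries and the log2 ratio of Aβ to control was taken. Across the 35 measured members this ratio ran from −0.38 (Trim16) to 0.31 (Trim45), so none reached 2-fold, a size reached by 0.994% of the 12980 genes measured. Members were higher with Aβ in 18 cases, lower in 16 and equal in 1, and their median log2 ratio was 0.01, as was that of all genes when rounded. Their levels summed to 1134 TPM (Aβ) and 1123 TPM (control).

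Read ratios divide the share of all reads that a gene held with Aβ by its share in the control, each with an exact Clopper-Pearson 95% interval. The intervals cover counting error only, because they are computed from the read numbers of 1 library per group. They compare 2 libraries rather than 2 conditions. No molecular identifiers mark which reads are copies of 1 molecule, so the intervals may be too narrow even for counting error. The interval lay above 1 for 4 members (Trim8, Trim9, Trim45 and Trim47), 11.4% of those measured against 12% of all genes. It lay below 1 for 5 members (Trim2, Trim16, Trim25, Trim28 and Trim59), 14.3% against 12.5% of all genes. Counting either direction, 25.7% of TRIM genes and 24.5% of all genes were past this mark, a share near the background. At least 1.2-fold by TPM + 1, 2 members (5.71%) were higher against 8.09% of all genes, and 4 members (11.4%) were lower against 6.98%. Among the lower ones the intervals of Trim16 and Trim25 excluded 1. Those of Trim7 (35 and 51 reads) and Trim13 (75 and 85 reads) held 1. The lower number depends on the setting: it was 7 with 0.1 in place of 1 added to the TPM, and 2 among members at 5 TPM or more. The shares of all genes under these other settings were not computed, so these numbers have no background beside them. The 9 members with an interval excluding 1 carry the gene numbers 688785 (Trim8), 155812 (Trim9), 295323 (Trim45), 690374 (Trim47), 361970 (Trim2), 303214 (Trim16), 494338 (Trim25), 116698 (Trim28) and 365813 (Trim59).

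**Figure D1:**
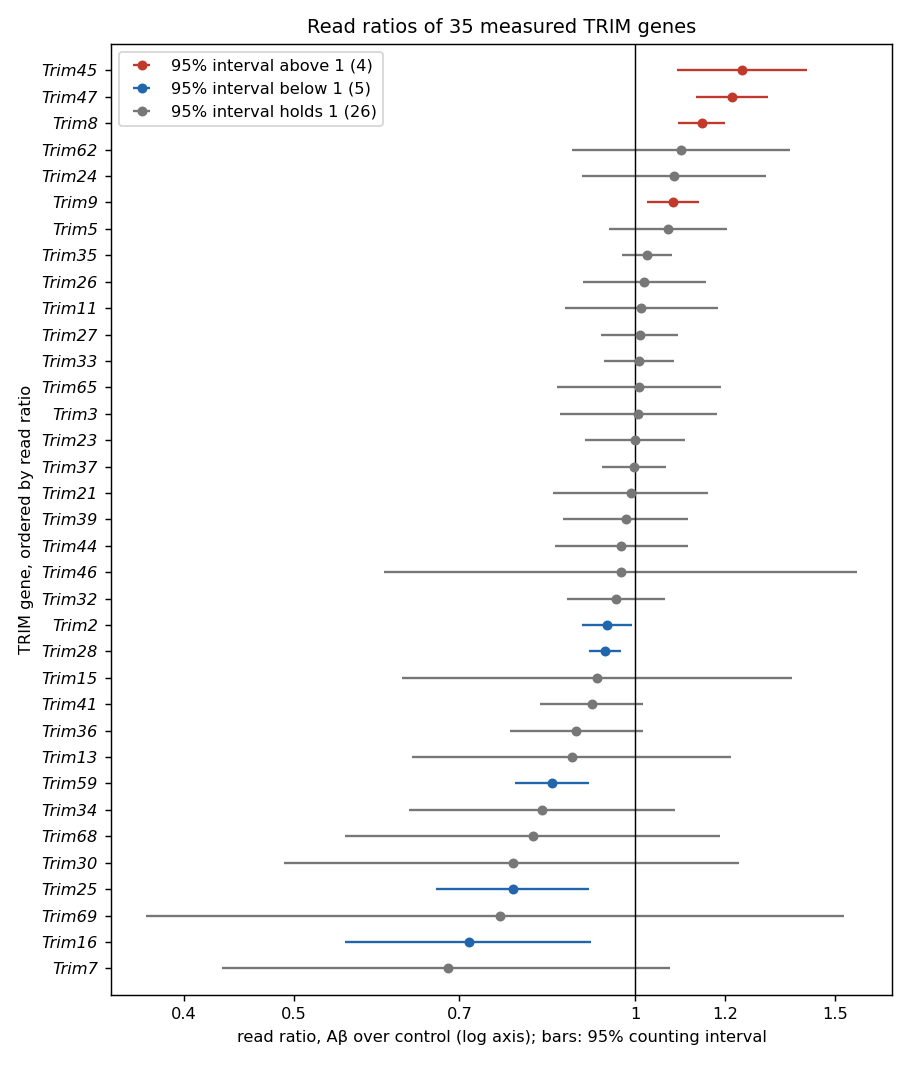
Read ratio of each of the 35 measured TRIM genes, Aβ over control on a log axis, with bars for the 95% counting interval and 1 library per group. The interval lies above 1 for 4 genes, below 1 for 5 and holds 1 for 26, and every ratio lies between 0.684 (Trim7) and 1.24 (Trim45).

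The summed level was concentrated in a few genes. The 8 highest members held 68.1% of it with Aβ and 67.4% in the control, and Trim28 alone held 21.3% and 22.7%. The median measured member stood at 15.5 TPM in each library, below the median of all measured genes at 21.1 TPM in each. In the control library 23 members were at 10 TPM or more and 8 at 50 TPM or more, and with Aβ the numbers were 22 and 7, since Trim36 and Trim59 crossed those lines. The order of the highest members by mean level was Trim28, Trim8, Trim35, Trim47, Trim9, Trim27, Trim44 and Trim59. Trim47 and Trim9 are neighbours in this order whose places differ between the libraries, with Trim47 below Trim9 and Trim27 in the control and above both with Aβ.

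**Figure D2:**
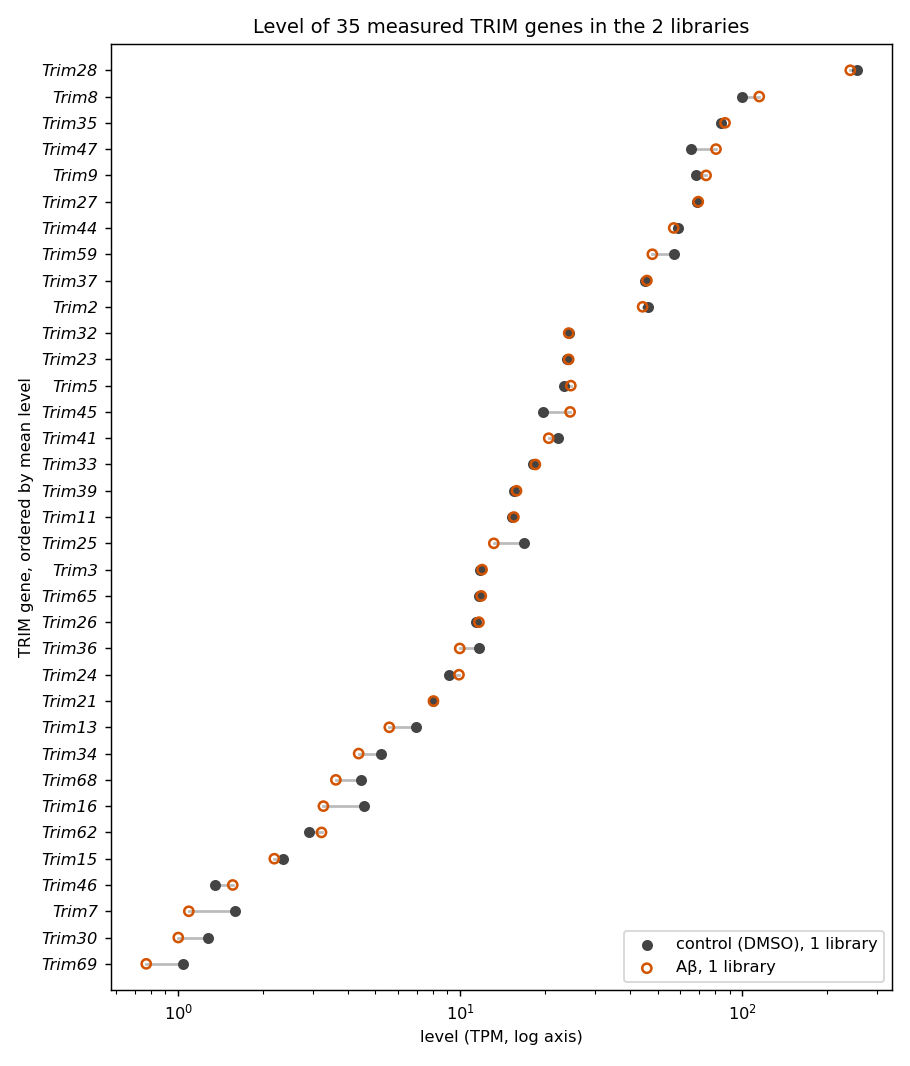
Level of the 35 measured TRIM genes in TPM on a log axis, with the control library as filled and the Aβ library as open points. Levels run from 0.77 TPM (Trim69 with Aβ) to 254.6 TPM (Trim28 in the control). The TPM ratio of the 2 points of a gene, Aβ over control, runs from 0.686 (Trim7) to 1.25 (Trim45).

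The chromatin readers included the most abundant member. Trim28, also called KAP1, is brought to DNA by KRAB zinc finger proteins and recruits the histone methyltransferase SETDB1 and heterochromatin proteins, which silences transposable elements. It was at 241.2 TPM (6724 reads) with Aβ and 254.6 TPM (7128 reads) in the control, a level above 95.4% of measured genes. The read ratio was 0.941 (0.910 to 0.973), a small difference whose interval excluded 1. Trim33, which targets Smad4 and binds the receptor Smads of TGF-β signalling, was at 18.45 and 18.09 TPM, a read ratio of 1.01 (0.940 to 1.08). Trim24, a nuclear receptor cofactor of the same class, was at 9.89 and 9.08 TPM (1.08, 0.899 to 1.31). Trim66, their relative without a RING finger, stayed under 1 TPM with 21 and 28 reads.

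The 4 members with an interval above 1 are taken first. Trim45, which ends in a filamin domain and is known as a repressor of MAP kinase signalling, was at 24.50 TPM (514 reads) with Aβ and 19.63 TPM (413 reads) in the control. Its read ratio of 1.24 (1.09 to 1.42) was the largest of the measured members. Trim45 was also the only TRIM gene among the 246 genes named in the authors' deposited table of gene ontology terms for genes higher with Aβ. It appears there once, among the 24 genes of the term regulation of inflammatory response, whose adjusted p in the authors' deposited table is 0.00109. That table was made from these same 2 libraries and is no independent evidence of the gene's direction.

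Trim47, a PRY-SPRY ligase, was at 80.60 TPM (1593 reads) with Aβ and 65.87 TPM (1305 reads) in the control, a read ratio of 1.22 (1.13 to 1.31). In the RefSeq annotation of the GRCr8 assembly its neighbour among protein-coding genes is Trim65, which ubiquitinates the RNA sensor MDA5. Trim65 was at 11.86 and 11.69 TPM with a read ratio of 1.01 (0.853 to 1.19), and its interval overlapped slightly with that of Trim47. The difference between the ratios of these neighbours was not tested. Trim8, which activates the kinase TAK1 in TNF and interleukin-1 signalling towards NF-κB, was at 114.7 TPM (3746 reads) with Aβ and 99.46 TPM (3264 reads) in the control. Its ratio was 1.14 (1.09 to 1.2). Trim9, a COS-box ligase enriched in brain that acts with the netrin receptor in axon branching, was at 74.34 TPM (2941 reads) and 68.41 TPM (2715 reads), a ratio of 1.08 (1.03 to 1.14). Trim9 therefore stood above 81.1% of measured genes. Of the 6 neuron markers, Map2 stood higher than Trim9 at 105.2 TPM (Aβ) and 107.2 TPM (control). The other 5 were lower than Trim9, namely Tubb3 (10.38 and 8.67 TPM), Snap25 (8.47 and 5.62 TPM), Stmn2 (6.40 and 5.71 TPM), Rbfox3 (2.03 and 0.92 TPM) and Syt1 (0.61 and 1.35 TPM). By TPM 4 of the 6 were higher with Aβ and 2, Map2 and Syt1, lower, and the part of these markers in the Trim9 value was not tested.

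The 5 members with an interval below 1 included 2 PRY-SPRY genes, Trim16 and Trim25, and 1 gene each of 3 other classes. Trim16, a PRY-SPRY member without a RING finger that acts with galectins in the response to damaged lysosomes, was at 3.27 TPM (113 reads) with Aβ and 4.54 TPM (158 reads) in the control. Its read ratio was 0.713 (0.555 to 0.914), resting on the fewest reads of these genes. Trim25, the interferon-induced ligase that ubiquitinates the viral RNA sensor RIG-I, was at 13.14 TPM (294 reads) and 16.76 TPM (376 reads), a ratio of 0.780 (0.667 to 0.911). Trim59, anchored in the membrane of the endoplasmic reticulum, was at 47.94 TPM (1277 reads) and 57.37 TPM (1507 reads), a ratio of 0.845 (0.784 to 0.911). Trim2, an NHL ligase that ubiquitinates the neurofilament light chain, was at 44.28 TPM (2888 reads) and 46.40 TPM (3049 reads). Its ratio of 0.945 (0.898 to 0.994) excluded 1 narrowly, and a 99% interval held 1 (0.883 to 1.01). Trim28 is the fifth.

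**Figure D3:**
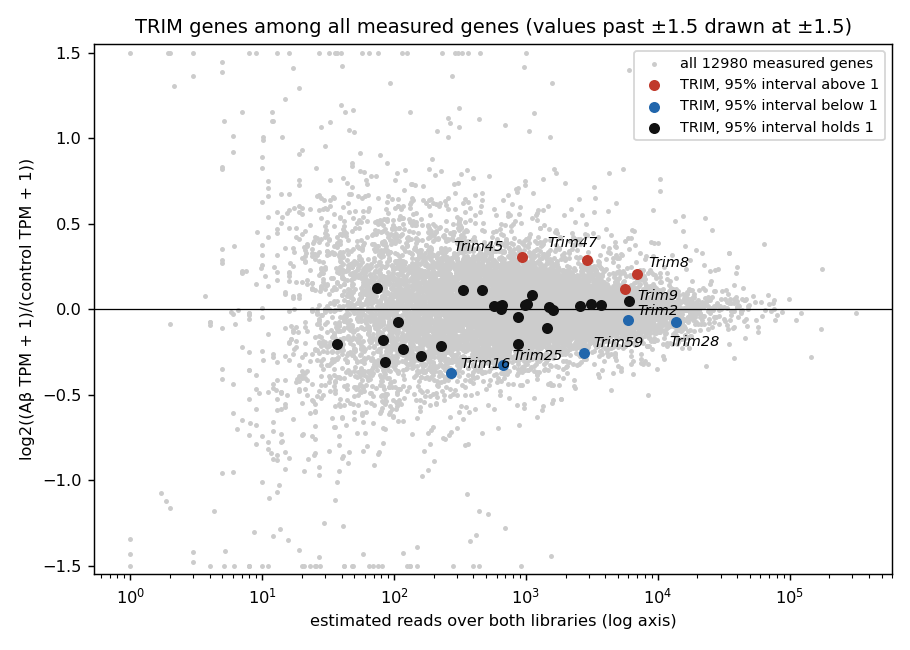
Log2 ratio of TPM + 1, Aβ over control, against estimated reads over both libraries (log axis) for all 12980 measured genes in grey and the 35 measured TRIM genes in colour, with values past ±1.5 drawn at that edge. The TRIM genes lie inside the cloud of all genes at their depth, between −0.38 and 0.31.

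PRY-SPRY genes made up most of the family, with 28 members of which 19 were measured. With Aβ 9 of them were higher, 9 lower and 1 equal, the median log2 ratio was 0.00, and the interval lay above 1 for 1 (Trim47, 5.26% against 12% of all genes) and below 1 for 2 (Trim16 and Trim25, 10.5% against 12.5%). Among the antiviral members named here, Trim5 had a read ratio above 1, and Trim21, Trim34, Trim30 and Trim25 had ratios below 1. Trim21, the cytosolic antibody receptor, was at 8.03 TPM in both libraries (321 and 323 reads, ratio 0.991, 0.847 to 1.16). Trim5, the retroviral capsid restriction factor, was at 24.64 and 23.22 TPM (1.07, 0.949 to 1.2). Trim34, its close paralogue, was at 4.36 TPM (103 reads) and 5.23 TPM (124 reads), a ratio of 0.828 (0.632 to 1.08). The gene listed as Trim30 was at 1.00 and 1.27 TPM on 36 and 46 reads (0.781, 0.490 to 1.23), and the RefSeq table names this gene number Trim30d. Under the name Trim30 a brake on NF-κB signalling is known from myeloid cells, and whether that role belongs to this gene was not checked. The summed level of the microglia and macrophage markers, given above, was also lower with Aβ, with 8 of the 12 lower by TPM and 4 (Itgam, Tyrobp, Trem2 and Ptprc) higher, and their part in the Trim30 value was not tested. Thus among Trim21, Trim5, Trim34, Trim30 and Trim25 only Trim25 was separated from equality at this depth.

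Interferon acts on its target genes through an element whose core is GAAA, any 2 bases and GAAA. The promoter windows of RefSeq for GRCr8, which reach from 250 bases before to 50 after each annotated start, held 41 of the 51 members by gene number. On either strand, and counting overlapping matches, the core was found in 3 of these 41 (7.32%), against 3.92% of all 33469 windows of that length. Those members were Trim21, Trim26 and Trim34, each with 2 overlapping matches. They are shown with Trim25, the interferon-induced member whose read interval excluded 1, to set the promoters beside the values. Each line gives 100 bases, 5′ to 3′ on the strand of the gene, with matches in capitals. They lie at chr1:166399352-166399451 (minus strand, Trim21), chr20:1736452-1736551 (minus strand, Trim26), chr1:168118973-168119072 (plus strand, Trim34) and chr10:74309944-74310043 (plus strand, Trim25), all in GRCr8, which is not the build of the deposited table.
Trim21: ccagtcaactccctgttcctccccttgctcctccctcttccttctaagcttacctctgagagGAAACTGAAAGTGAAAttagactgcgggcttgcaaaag
Trim26: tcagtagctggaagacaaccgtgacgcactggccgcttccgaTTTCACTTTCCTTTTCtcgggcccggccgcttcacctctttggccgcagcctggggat
Trim34: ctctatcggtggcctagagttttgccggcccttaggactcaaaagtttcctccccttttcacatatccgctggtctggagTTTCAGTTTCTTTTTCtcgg
Trim25: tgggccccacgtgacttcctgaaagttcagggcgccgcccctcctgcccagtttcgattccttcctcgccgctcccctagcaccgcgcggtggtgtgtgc

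The 3 genes with a match in this window had read ratios of 0.991 (Trim21), 1.02 (Trim26) and 0.828 (Trim34), and each interval held 1. The window of Trim25 (ratio 0.780) holds no copy of these letters. A match or its absence describes letters in the window only and says nothing of whether a factor binds there.

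The other measured PRY-SPRY genes lay close to equal or rested on few reads. Trim35, a regulator of innate signalling in macrophages and the third most abundant member, was at 86.77 and 84.04 TPM (1.02, 0.973 to 1.08). Trim27, also called RFP, was at 69.74 and 68.81 TPM (1.01, 0.933 to 1.09). Trim68, an androgen receptor cofactor, was at 3.62 TPM (53 reads) with Aβ and 4.44 TPM (65 reads) in the control (0.813, 0.555 to 1.19). Trim7, named for its interaction with glycogenin, had the lowest ratio of all measured members but only 35 and 51 reads, and its interval of 0.432 to 1.07 held 1. The intervals of Trim11, Trim39 and Trim62 each held 1. Trim69, first known from testis, was the single member that passed the filter through 1 library only, at 0.77 TPM (Aβ) and 1.04 TPM (control) on 16 and 21 reads.

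Of the 6 measured COS-box and NHL genes, which act on microtubules and in neural cells, Trim9 lay above 1 and Trim2 below, and the intervals of the other 4 held 1. Trim36, a COS-box protein of the microtubule network, was at 9.95 TPM (412 reads) with Aβ and 11.63 TPM (463 reads) in the control (0.888, 0.775 to 1.02). Trim46, which organises parallel microtubules at the start of the axon, was at 1.56 and 1.35 TPM on 36.59 and 37.89 reads (0.971, 0.601 to 1.57), so its TPM was higher with Aβ and its reads were not. Among NHL genes, Trim32, a ligase that promotes the differentiation of neural progenitors, was at 24.22 and 24.28 TPM (0.962, 0.872 to 1.06). Trim3, which acts at synapses, was at 11.94 and 11.78 TPM (1.01, 0.859 to 1.18). The remaining 1 of 4 genes in each of these classes, Trim67 and Trim71, was below 1 TPM.

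The small classes and the members without a further domain completed the measured set. Trim37, a ligase of peroxisomes and centrioles, had 1849 reads in each library and levels of 45.86 and 45.03 TPM, which left a ratio of 0.997 (0.935 to 1.06). Trim23, which carries an ARF-type GTPase domain, had 756 and 754 reads (1.00, 0.903 to 1.11). Trim44, which has a zinc finger of the deubiquitinase type in place of the RING, was at 57.07 and 59.06 TPM on 434 and 445 reads (0.973, 0.850 to 1.11). Trim13, the other member with a membrane anchor besides Trim59, was at 5.60 and 6.97 TPM but on 75 and 85 reads (0.880, 0.636 to 1.21). For Trim13 and Trim46 the TPM ratio stood more than 5% away from the read ratio, at 0.913 and 1.19 times it, and for the other 33 measured members the ratios were closer.

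How closely equality was resolved depended on the reads. Measured members had between 37 and 13852 reads over both libraries. For 16 of the 35 the whole interval lay between 0.833 and 1.2, so that a difference of 1.2-fold between these libraries lies outside it, and these included Trim9, Trim2 and Trim28, whose small differences excluded 1. For 7 members with fewer than 200 reads (Trim7, Trim13, Trim15, Trim30, Trim46, Trim68 and Trim69) such a difference was not detectable at this depth. Some members with 200 or more reads also had intervals that held 1 and reached past these limits. Their bounds went down to 0.632 (Trim34) and up to 1.37 (Trim62). Among the 28 members with 200 or more reads the interval excluded 1 for 9, or 32.1%, against 26.8% of all genes with as many reads.

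Directions were also counted by level. Of 12 measured members with a mean level under 10 TPM, 8 were lower and 3 higher with Aβ, with a median log2 ratio of −0.19. Among all 4089 genes in that range 47.8% were lower and the median was 0.01. Of 23 members at 10 TPM or more, 15 were higher and 8 lower, with a median of 0.02 against 0.01 for all 8891 such genes. This division by level was made after the values were seen, so it supports no difference between levels. In the lower range the interval excluded 1 for Trim16 alone, and Trim69, among the 8 lower, passed the filter through the control library only.

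The 16 members under 1 TPM in both libraries included genes known from muscle (Trim55 and Trim72), epithelium (Trim29), gastric cells (Trim50), red cell precursors (Trim10) and embryonic stem cells (Trim71). None exceeded 0.50 TPM, and 14 of them had 10 or fewer reads in each library. Trim29, Trim30c, Trim31 and Trim71 were at 0 reads with Aβ, and Trim38 was at 0 in the control. The limit set by a count of 0 is 3 reads, which is 0.191 CPM (reads scaled to the library total) in the Aβ library and 0.192 CPM in the control library. The other library had 3 reads or fewer in each of these cases, so no fold is given. Trim80, which RefSeq lists with Trim47 among its older names, had 6 reads with Aβ and 18 in the control. Its ratio of 0.332 (0.108 to 0.874) excluded 1 at 95%, though not at 99% (0.0742 to 1.13).

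Estimated counts were not whole for 3 measured members, which can arise where reads are shared among gene models. Trim15 was listed at 51.50 and 56.43 reads and Trim26 at 516.50 and 504.57 reads. Their sums were whole in both libraries (568 and 561), and in the RefSeq annotation of GRCr8 the genes are adjacent and overlap. Trim15 alone had a read ratio of 0.926 (0.623 to 1.38), Trim26 alone 1.02 (0.900 to 1.15), and the sum 1.01 (0.897 to 1.14). The division between Trim15, known from focal adhesions, and Trim26, a regulator of the interferon-β response, is therefore uncertain. The fractions of Trim46 were completed in the same way by LOC103690106 at 5.41 and 3.11 reads, which gave sums of 42 and 41.

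Several members are neighbours on the same chromosome in GRCr8, with 12 of the 51 on chromosome 1, 10 on chromosome 10 and 5 on chromosome 20. Trim6, Trim34, Trim5, Trim30c and the gene listed as Trim30 follow each other on chromosome 1. In that run Trim5 had a ratio above 1, Trim34 and Trim30 had ratios below 1, and Trim6, on 6 and 8 reads, and Trim30c were under 1 TPM. On chromosome 10 Trim41, a ligase of protein kinase C, stood near Trim7 and had 694 and 756 reads, a ratio of 0.916 (0.825 to 1.02) beside 0.684 for Trim7.

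Family members named otherwise and genes that work with TRIM proteins were compared in the same way. Of 11 family genes with other names, 8 were in the table and 5 measured. Pml, the scaffold of nuclear bodies and itself interferon-induced, was at 14.44 TPM (777 reads) with Aβ and 16.74 TPM (907 reads) in the control, a ratio of 0.854 (0.775 to 0.941). Mid1 and Mid2, microtubule-bound ligases close to Trim9 and Trim36, had ratios of 1.01 (0.900 to 1.13) and 1.14 (0.943 to 1.38). Fsd1 was at 0.898 (0.556 to 1.44) on 36 and 40 reads. Bspry, with 22 and 8 reads, was the other gene of this list with an interval excluding 1 (2.74, 1.18 to 7.12), and was named after its values were seen.

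Among 23 measured genes of RIG-I, cGAS and interferon signalling, 15 were lower and 8 higher with Aβ, with a median log2 ratio of −0.03. The interval lay below 1 for 2 (8.70%) and above 1 for 1 (4.35%), beside 12.5% and 12% of all genes. Tab2, the TAK1 adaptor that TRIM30 and TRIM38 are known to target, was at 38.94 and 45.06 TPM (0.857, 0.803 to 0.914). Isg15, the ubiquitin-like modifier whose ligases include TRIM25, had 37 and 46 reads (0.802, 0.506 to 1.26). Tmem173, which encodes STING, had 47 and 34 reads (1.38, 0.868 to 2.21), and Herc6 77 and 61 (1.26, 0.888 to 1.79). The interferon genes with an interval excluding 1 besides Tab2 were Zc3hav1 at 0.924 and Irf3 at 1.13, named after their values were seen.

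All 21 E2 enzymes and ubiquitin genes were measured, with 8 higher and 13 lower, a median log2 ratio of −0.03, and an interval above 1 for 2 (9.52%, against 12% of all genes) and below 1 for 3 (14.3%, against 12.5%). Ube2g2, an E2 enzyme of protein disposal from the endoplasmic reticulum, was at 53.77 and 43.60 TPM (1.23, 1.11 to 1.36), and its relative Ube2g1 went the other way at 52.41 and 60.43 TPM (0.864, 0.789 to 0.946). Ube2e2 was at 1.16 (0.998 to 1.36), and Ube2d4, on 24 and 37 reads, at 0.647 (0.370 to 1.11). Of 15 measured partners of TRIM28 in silencing, 11 were lower and 4 higher. Their interval lay below 1 for 5 (33.3%, against 12.5% of all genes) and above 1 for 1 (6.67%, against 12%), while the median log2 ratio was −0.02. All 15 had 200 or more reads over both libraries, and among all genes with as many reads the shares were 13.7% below and 13.1% above. The 1 above was the heterochromatin protein gene Cbx3 at 639.6 and 610.1 TPM (1.04, 1.01 to 1.07), named after its values were seen. The partners below 1 included the chromatin remodeller Chd3 at 5.14 and 6.67 TPM (0.763, 0.665 to 0.873) and Morc2, an ATPase of the silencing complex, at 20.90 and 24.88 TPM (0.823, 0.753 to 0.901). Atf7ip, which stabilises SETDB1, was at 0.878 (0.832 to 0.927) and the replication-coupled methylation factor Uhrf1 at 0.908 (0.863 to 0.955). Smarcad1, named after its values were seen, excluded 1 narrowly at 0.936 (0.879 to 0.996). The intervals of all other measured partners held 1. They include Setdb1 itself (0.965, 0.902 to 1.03) and the heterochromatin protein genes Cbx1 (0.972, 0.886 to 1.07) and Cbx5 (1.06, 0.965 to 1.15), also named after their values were seen. The difference between the partners and all genes was not tested. The 6 measured Smads, among which Smad4 is a target of TRIM33, had no interval excluding 1. Smad4 was at 0.936 (0.873 to 1.00), Smad3 at 1.03 (0.952 to 1.12), Smad2 at 1.02 (0.931 to 1.12) and Smad5 at 1.01 (0.963 to 1.05).

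Set beside the other large group of RING ligases, the genes named Rnf and a number, the TRIM genes had a similar median. A larger share of them had an interval excluding 1. Of 77 Rnf genes 68 were measured, with 37 higher and 30 lower and a median log2 ratio of 0.01. Their interval excluded 1 for 11 (16.2%), against 9 of 35 TRIM genes (25.7%) and 24.5% of all genes, and this difference between the families was not tested. No Rnf gene reached 2-fold, and their log2 ratios ran from −0.54 to 0.65.

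**Figure D4:**
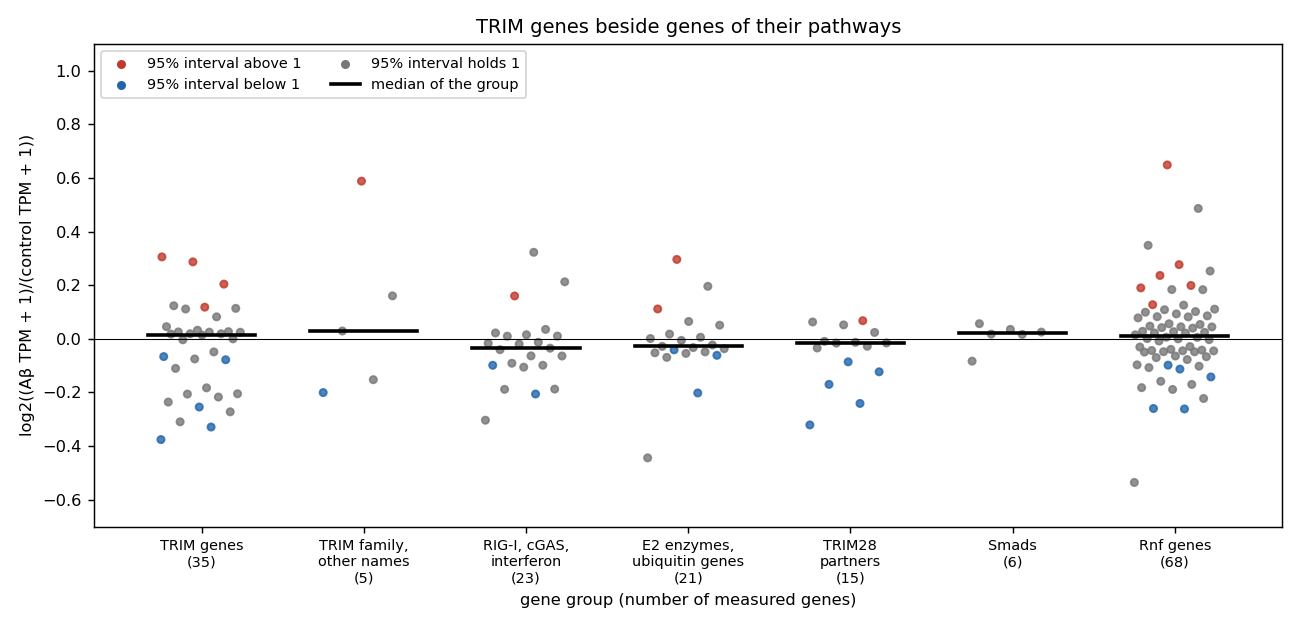
Log2 ratio of TPM + 1, Aβ over control, for each measured gene of 7 groups, coloured by whether the 95% counting interval of its read ratio excludes 1, with black bars at the group medians. Rounded to 2 decimals, all medians lie between −0.03 and 0.03, and the TRIM points spread about 0 in both directions.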

How the data were processed

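Gene expression was measured by mRNA sequencing in 2 libraries, 1 with Aβ and 1 with DMSO. Per the submitters' processing notes, the aligner was Bowtie2 and the genome build Rnor_6.0. Its version, the counting tool and the annotation were not given in the sources used here. Per the file headers, the deposited table holds estimated counts of reads, TPM and FPKM for each gene. The FPKM values deposited by the authors were not used. A deposited column named normalized read count holds read counts rounded up, without exception over the 17049 genes, and as a score of the authors it entered no result. The authors' deposited gene ontology table gives numbers of genes and an adjusted p-value per term and is quoted once.

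Symbols were matched to the rule, and ratios were computed on TPM with a pseudocount of 1, which understates the ratio of low genes, for genes that reached 1 TPM in at least 1 library. Counts were rounded to whole numbers for the Clopper-Pearson intervals (Python 3.11.15, scipy 1.17.1). Reads that are not whole occur in 3 of the 35 measured members. The read ratio and its interval were tested on simulated counts that held counting error only, with no copied or divided reads. The other steps were not tested in this way. RefSeq tables of GRCr8 supplied promoter sequences and names: 51 members were found by gene number, 50 with the same symbol.

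The family and the lists were proposed with earlier results of these data known, though the rule for members uses names alone. Values are given one by one for the 8 highest members, the 10 with the largest absolute log2 ratio among those with 100 or more reads, every member with an interval excluding 1 or 2-fold apart, and those with reads that are not whole; per companion list, for up to 4 genes with 50 or more reads. Other members were named for their known roles, with values known. Alternatives were CPM, a pseudocount of 0.1, other filters, 99% intervals, scaling by the median ratio and whole reads only.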

Additional observations from a re-analysis of the deposited data

How the results depend on the processing

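No member was 2-fold apart by CPM, with a pseudocount of 0.1 or with whole reads only. The median log2 ratio of the members stayed between −0.03 (CPM) and 0.02 (5 TPM or more). The number at least 1.2-fold lower by TPM, 4 as reported, was 7 with a pseudocount of 0.1, 2 at 5 TPM or more, 3 by CPM and 4 with whole reads only. By construction a smaller pseudocount shrinks low genes less, and only 27 members reach 5 TPM. The number at least 1.2-fold higher was 2 in each of these. Scaling by the median ratio kept the same 4 members above 1 and the same 5 below 1. With 99% intervals the 4 above 1 remained, and Trim2 left the 5 below 1. Without the TPM filter the numbers were 4 and 6, the added gene being Trim80. The shares of all genes past these marks were not computed under the alternative settings, so the numbers of members have no background there. The use of TPM ratios for single members and the alternatives for companion lists were chosen after seeing the data. No replicate could be left out and no paired analysis was possible because each group had 1 library. Depth limits the 7 measured members under 200 reads most.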
